A study of Mus musculus with 51 samples.

Results

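The genes described here are 9 of the 33773 genes in the deposited expression matrix. They were taken by name as rows for the urea cycle and for glutamine metabolism. Cps1, Otc, Ass1 and Asl encode enzymes of the cycle. Nags makes the activator of the cycle's entry enzyme, and Slc25a15 carries ornithine into mitochondria. Glul makes glutamine, Gls2 breaks it down, and Oat converts ornithine towards glutamate. All 9 passed the filter on low values in hepatocytes and in liver.

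The urea cycle turns toxic ammonia into urea, with its first steps in mitochondria and the rest in the cytosol of hepatocytes. Cycle enzymes are richest around the portal vein. Hepatocytes around the central vein hold glutamine synthetase, the Glul product, together with Oat, and catch the ammonia that escapes the cycle. FoxA1, FoxA2 and FoxA3 are forkhead transcription factors, and HNF4a is a nuclear receptor; both kinds bind many liver genes.

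RNA-seq was read in 21 mouse libraries from 6 groups, 15 of isolated hepatocytes and 6 of liver. The FoxA triple null group (n = 4) came from FoxA3-/- mice with floxed FoxA1 and FoxA2. At 8 weeks of age they received an adeno-associated virus of serotype 8 that expresses Cre from the hepatocyte promoter Tbg. The series text describes GFP-virus controls that carry those same alleles, and the group labelled FoxA3 null (n = 4) is read as those, so FoxA3 is missing from both. FoxA1/A2 lox hepatocytes (n = 3) carry floxed FoxA1 and FoxA2 with FoxA3 present. The FoxA1/A2 Cre alfp group (n = 4) carries a Cre labelled alfp with FoxA3 present. Livers were labelled HNF4a control (n = 2) or HNF4a null (n = 4), the latter depleted in the adult. The deleting agent of those livers, sex, and the ages of the other groups were not given in the sources used here. Nothing in the labels says that replicates came from separate animals, so p-values measure the spread between these libraries.

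Levels are RPKM, read counts scaled by gene length and library total, so they can be set side by side between genes. Differences are in log2(RPKM + 1) with a standard error (SE) from limma, and adjusted p-values cover all 11500 genes tested in hepatocytes or all 12434 tested in liver. A gene rose or fell where its adjusted p was under 0.05. Each adjusted p tests the difference before any median is subtracted, also where a value relative to the median is printed beside it. It was called where the difference, before any median is subtracted, was also at least 1, that is 2-fold on this scale.

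The targeted genes were checked first. Foxa2 was at 0.243 to 0.47 RPKM in the triple null libraries and at 11.1 to 20.6 in FoxA3 null. Foxa1 was at 3.04 to 3.63 RPKM in the triple null libraries and at 6.14 to 10.1 in FoxA3 null, so part of its signal remained. With FoxA3 present, Foxa1 was at 1.14 to 1.34 RPKM with Cre alfp and 4.71 to 8.21 in lox, and Foxa2 at 0.991 to 1.26 and 6.84 to 19.2. Foxa3 was at most 0.0114 RPKM in both groups that lack it. Hnf4a went against its label. The 4 libraries labelled HNF4a null held 487 to 545 RPKM and their controls 118 to 126, and the matrix has 1 value per gene, which does not show which exons are read. Every direction from that group is that of the libraries labelled HNF4a null. The absolute depth is unknown. From the smallest steps in the values, hepatocyte libraries were 2.01 to 4.07 times as deep as the shallowest liver library. The 6 hepatocyte markers, albumin among them, summed to 12892 to 18319 RPKM in triple null libraries and to 32184 to 42786 in FoxA3 null.

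Promoter sequence from RefSeq (build GRCm38.p6) was at hand for 6 of the 9 members, Otc, Ass1, Nags, Slc25a15, Glul and Oat. Those of Otc, Oat and Glul are shown because these members had the largest increases or the deepest loss among the 6. Each run is the 250 bases before the annotated start of the gene, 5′ to 3′ on the gene's strand, and capitals mark CCAAT or its reverse complement ATTGG. The windows are chrX:10252055-10252304 on the plus strand for Otc, chr7:132576399-132576648 on the minus strand for Oat, and chr1:153899679-153899928 on the plus strand for Glul.
Otc: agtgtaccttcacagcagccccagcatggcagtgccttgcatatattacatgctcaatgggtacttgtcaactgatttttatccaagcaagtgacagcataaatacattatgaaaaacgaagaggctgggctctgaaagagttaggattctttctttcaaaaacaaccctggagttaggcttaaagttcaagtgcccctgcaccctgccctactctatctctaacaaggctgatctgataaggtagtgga
Oat: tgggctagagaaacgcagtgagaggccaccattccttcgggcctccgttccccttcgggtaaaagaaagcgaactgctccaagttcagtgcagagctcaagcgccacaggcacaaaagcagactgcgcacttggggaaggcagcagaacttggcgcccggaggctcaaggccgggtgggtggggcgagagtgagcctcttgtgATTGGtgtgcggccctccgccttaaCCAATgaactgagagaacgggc
Glul: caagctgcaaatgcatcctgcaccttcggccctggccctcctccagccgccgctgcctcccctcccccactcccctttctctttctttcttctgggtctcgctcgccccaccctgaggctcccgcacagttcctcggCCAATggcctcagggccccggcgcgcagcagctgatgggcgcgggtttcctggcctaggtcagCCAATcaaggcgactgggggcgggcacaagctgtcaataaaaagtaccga
The 7 windows of the 6 members were searched on both strands for the forkhead motifs TGTTTAC and TGTTTGC, the HNF4a motif CAAAGTCCA, the C/EBP motif TTNCGNAA and the CREB motif TGACGTCA, and none of these letters was found in them. Over all 32851 RefSeq windows of 250 bases, the share that holds each motif was 3.17%, 4.30%, 0.384%, 2.04% and 1.55%, in that order. Only these exact letters were searched and near matches were not. With shares this low, a search of 7 windows cannot show that binding sites are absent. The CCAAT box was added after the sequences were read; Oat and Glul each hold 2, and 33.8% of all windows hold at least 1. The 250 bases of Otc are 43.6% G or C, against 60.0% for Oat and 64.8% for Glul.

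In triple null against FoxA3 null hepatocytes, FoxA1 and FoxA2 were targeted where FoxA3 was already missing. In that comparison, transcripts of Cps1 fell furthest and those of Oat rose most among the 9 members. Oat was 6.72 times higher. Cps1 was 4.51 times lower and Asl 2.42 times lower. These 3 of 9 members were called, where 8.11% of all tested genes were called in either direction. At adjusted p alone 3 members fell (Cps1, Otc, Asl) and 3 rose (Nags, Slc25a15, Oat), where 12.3% of tested genes fell and 17.4% rose. The median difference of the 9 was 0.27, against 0.05 over all tested genes. The libraries of the 2 groups did not overlap for 7 of the 9 members, where 27.9% of all tested genes did not overlap.

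**Figure D1:**
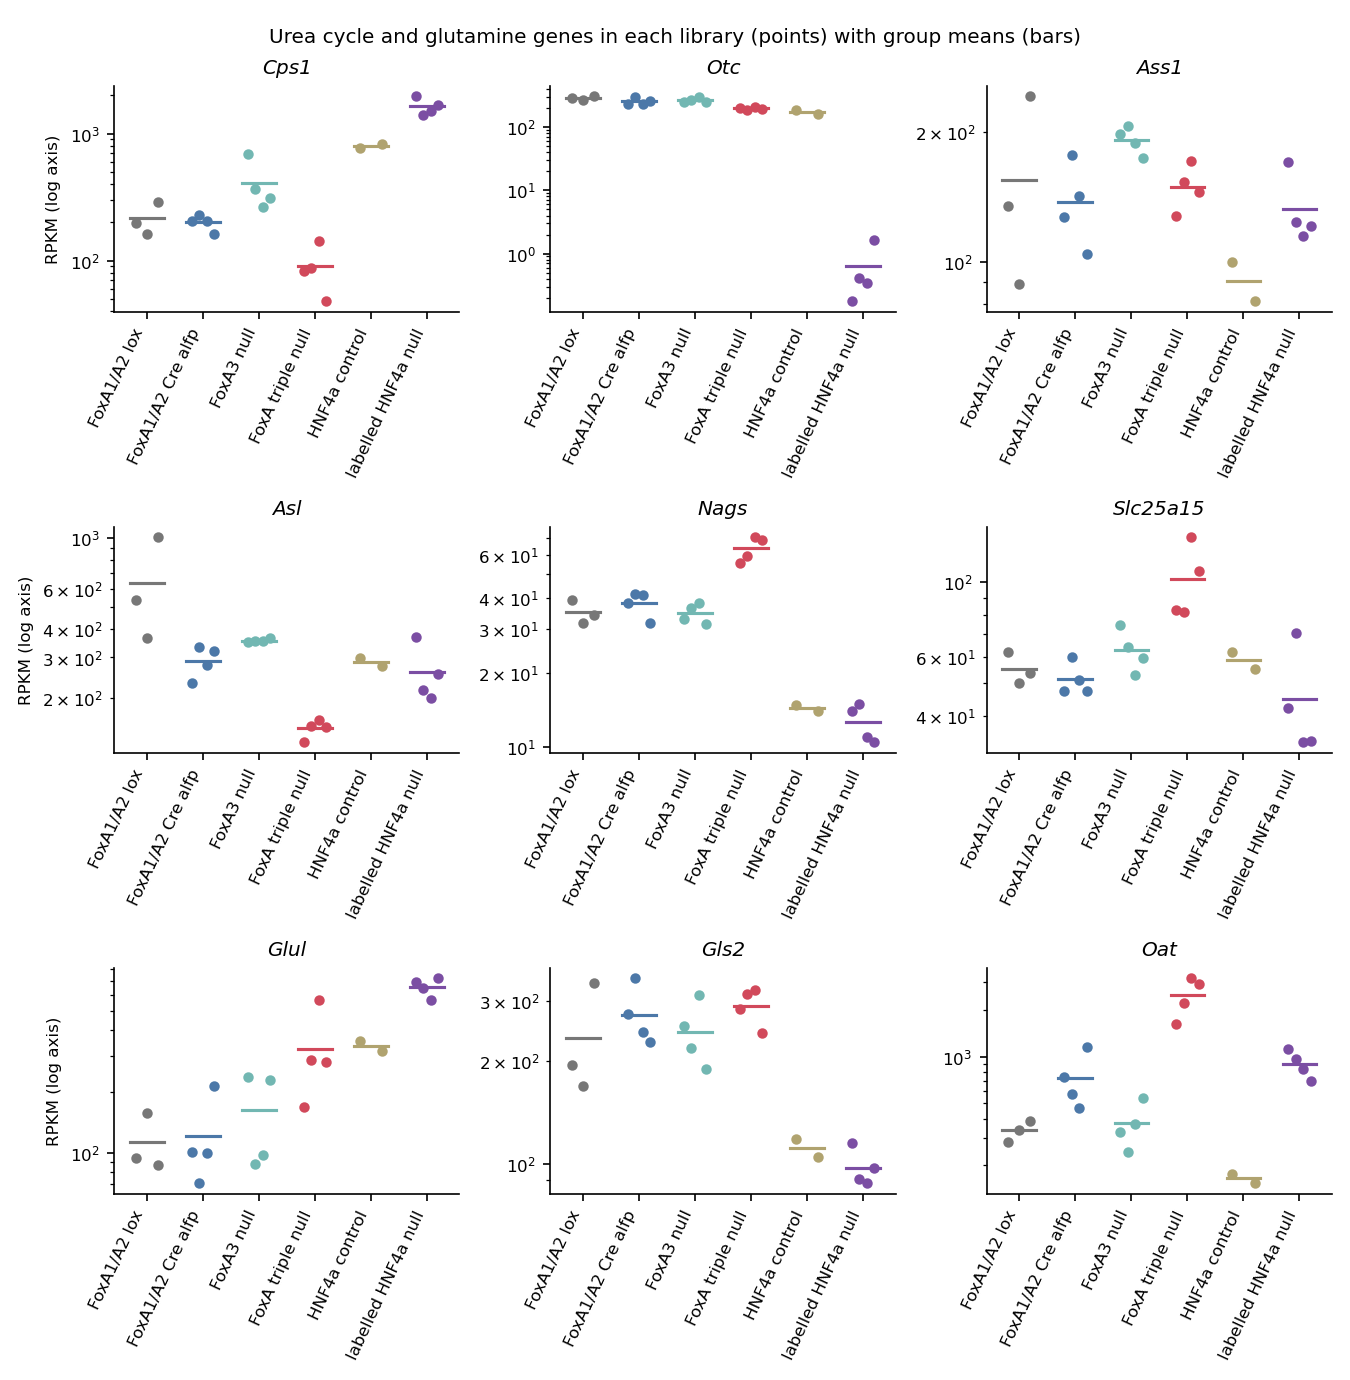
RPKM on a log axis of each member in each library (points), by group, with group means (bars). Oat reads 1625 to 3194 in the 4 triple null libraries and 1154 or less in every other library, and Otc reads 0.175 to 1.63 in the 4 liver libraries labelled HNF4a null and 164 or more elsewhere.

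Cps1, the mitochondrial enzyme that fixes ammonia as carbamoyl phosphate, read 82.3, 87.5, 143 and 47.6 RPKM in the triple null libraries. In FoxA3 null it read 686, 364, 262 and 313. Each triple null library was below every FoxA3 null library, and FoxA3 null replicate 1 stood highest of the hepatocyte libraries. Cps1 fell by 2.16 in log2 units (SE 0.32, adjusted p = 0.000189 by limma), a value that ran from -2.42 to -1.88 as each of the 8 libraries was left out. Nags, which makes the N-acetylglutamate that Cps1 needs, moved the other way. Its triple null libraries read 55.5, 59.6, 70.7 and 69.0 RPKM, all above the FoxA3 null values of 33.2, 36.4, 38.2 and 31.6. The rise was 0.85 (SE 0.12, adjusted p = 0.000106), under the size needed for a call.

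Otc joins carbamoyl phosphate to ornithine inside mitochondria. It fell slightly, with 200, 189, 212 and 195 RPKM in triple null and 246, 265, 301 and 251 in FoxA3 null, so the groups did not overlap. The difference was -0.41 (SE 0.10, adjusted p = 0.00800). Slc25a15, the carrier that brings ornithine to Otc, read 82.8, 81.5, 136 and 108 RPKM in triple null and 74.6, 64.2, 52.9 and 59.4 in FoxA3 null. It rose by 0.67 (SE 0.16, adjusted p = 0.00649).

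In the cytosol, Ass1 joins citrulline to aspartate and Asl splits the product into arginine and fumarate. Ass1 read 128 to 172 RPKM in triple null and 175 to 207 in FoxA3 null, a difference of -0.36 (SE 0.24) that missed the threshold (adjusted p = 0.270). Asl read 128, 151, 161 and 149 RPKM in triple null and 352, 352, 354 and 364 in FoxA3 null. The groups were far apart for Asl, and FoxA3 null libraries were nearly equal. Asl fell by 1.27 (SE 0.23, adjusted p = 0.000804).

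Oat, the ornithine aminotransferase, read 1625, 2211, 3194 and 2954 RPKM in triple null and 330, 245, 370 and 541 in FoxA3 null. Every triple null library was above every FoxA3 null library. The rise was 2.75 (SE 0.29, adjusted p = 9.25e-06). Glul varied widely inside both groups, at 167, 284, 565 and 279 RPKM in triple null and 236, 88.3, 97.2 and 229 in FoxA3 null. These groups overlapped, and its difference of 1.00 (SE 0.43) missed the threshold (adjusted p = 0.0939). The Glul difference ran from 0.69 to 1.27 as each of the 8 libraries was left out. It passed only without triple null replicate 1, at 1.27 (adjusted p = 0.0484). Without triple null replicate 3 it was 0.69 (adjusted p = 0.237). Gls2, the liver glutaminase, read 243 to 324 RPKM against 189 to 313, a difference of 0.27 (SE 0.22, adjusted p = 0.366).

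In bulk RNA, fewer cells of a type and less RNA per cell cannot be told apart. Neutrophil markers moved with the triple null group: their sum was 8.96 to 109 RPKM there and 0.664 to 1.65 in FoxA3 null, with Ly6g at 0 in every library. The 6 sinusoidal endothelium markers summed to 3.58 to 5.93 RPKM in triple null and 9.46 to 19.3 in FoxA3 null. Kupffer cell and macrophage markers, 5 of 6 of them in the matrix, summed to 7.30 to 27.0 and 11.8 to 16.8 RPKM. Stellate and fibroblast markers summed to 5.40 to 19.8 and 19.1 to 26.4 RPKM, and cholangiocyte markers to 1.77 to 3.96 and 2.67 to 6.29. Erythroid markers summed to 5.92 to 21.7 and 33.0 to 47.3 RPKM. Alas2, the erythroid heme synthesis enzyme, set that order at 1.04 ± 0.281 against 38.9 ± 5.74 RPKM (SD, n = 4), while the globins Hbb-b1 and Hba-a1 were called higher in triple null, by 1.49 and 1.79. Lymphocyte markers summed to less than 1 RPKM in every hepatocyte library. The part of these cells in the members' differences was not tested.

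With FoxA3 present, deletion of FoxA1 and FoxA2 was read in FoxA1/A2 Cre alfp against lox. There 1 of 9 members was called, Asl, where 2.38% of all tested genes were called. No member rose, where 2.84% of tested genes rose, and 1 fell, where 2.62% fell. Asl read 233, 335, 278 and 319 RPKM with Cre and 534, 365 and 1004 in lox, so the 2 groups did not overlap and the lox libraries spread widely. The difference was -1.01 (SE 0.24, adjusted p = 0.0284). It was -0.61 without lox replicate 3, and the call was also lost without lox replicate 1, without Cre alfp replicate 1 or 3, without the filter on low values, in a fit of these 2 groups alone and after quantile scaling (-0.96). Oat read 740, 574, 468 and 1154 RPKM with Cre and 284, 338 and 385 in lox. Its groups did not overlap either, as for 19.9% of all tested genes, and the difference of 1.05 (SE 0.32) missed the threshold (adjusted p = 0.0728), while after quantile scaling it was called at 1.11 (adjusted p = 0.0418). Erythroid markers summed to 14.9 to 29.2 RPKM with Cre and 81.3 to 90.8 in lox, with Alas2 called lower and Hbb-b1 called higher. Of the cholangiocyte markers, Spp1 was called lower, at 1.81 ± 0.831 RPKM with Cre (SD, n = 4) and 5.40 ± 2.40 in lox (n = 3). The part of these cells in the differences was not tested.

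The interaction asks whether the effect of FoxA1/A2 deletion differed with FoxA3 status. It was called for 2 of 9 members, Cps1 and Oat, where 6.82% of all tested genes were called. The 1 negative interaction that passed (6.17% of all tested genes) was that of Cps1 at -2.08 (SE 0.47, adjusted p = 0.0102). The 3 positive ones (8.25% of all tested genes) were those of Oat at 1.70 (SE 0.43, adjusted p = 0.0180), Nags at 0.73 (SE 0.17, adjusted p = 0.0129) and Slc25a15 at 0.77 (SE 0.24, adjusted p = 0.0441). Slc25a15 no longer passed in 11 of 15 fits that left out 1 library, with the replicate block, after quantile scaling or without the filter on low values. Oat did not pass without that filter (adjusted p = 0.0533). Asl fell in both settings, and its interaction of -0.27 (SE 0.33, adjusted p = 0.635) did not pass. The pairs also differ in how Cre was delivered and in how much Foxa1 signal remained. Foxa1 was at 38.6% of FoxA3 null in triple null and at 18.4% of lox with Cre alfp. Cre delivery, remaining Foxa1 and FoxA3 genotype cannot be told apart. Marker genes moved in the interaction too: both tested neutrophil markers were called higher (median 2.55), and 3 of 6 hepatocyte, 1 of 5 sinusoidal endothelium, 1 of 2 stellate and fibroblast and 1 of 3 erythroid markers were called lower. Their part in the members' interactions was not tested.

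**Figure D2:**
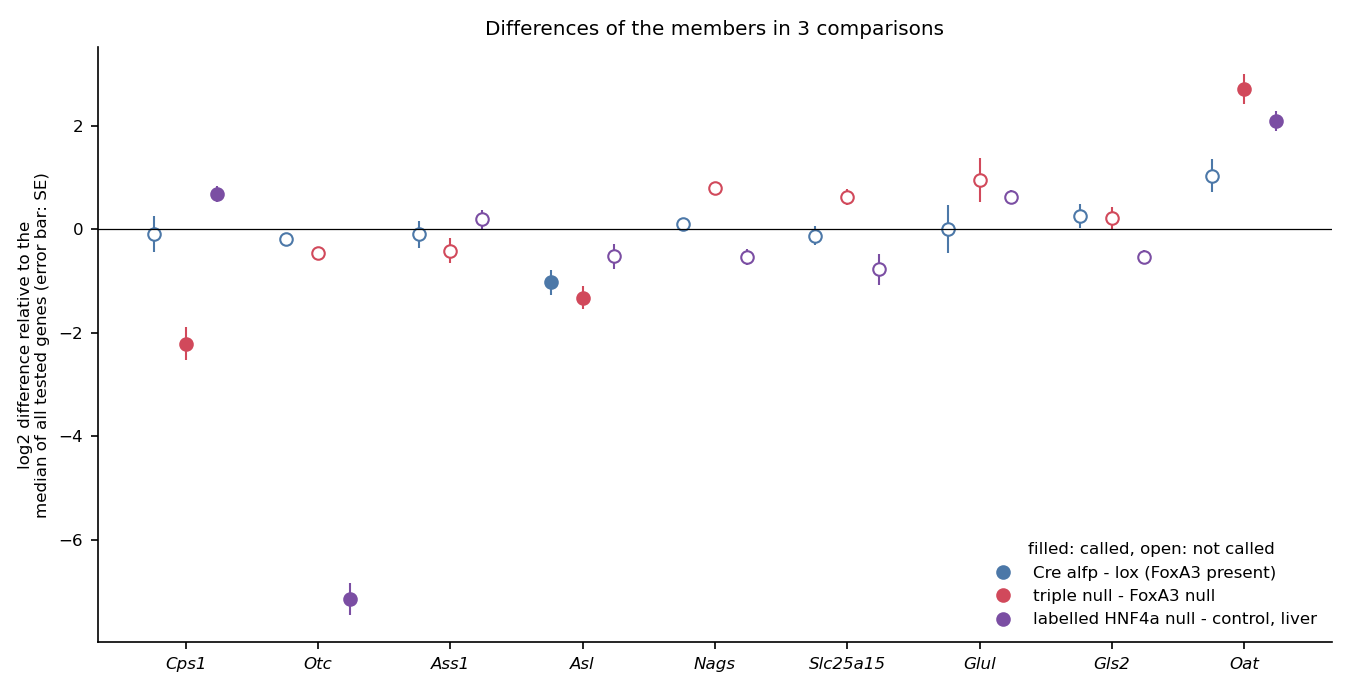
Log2 difference of each member relative to the median of all tested genes, with SE, in 3 comparisons; filled points were called. Otc lies at -7.15 for livers labelled HNF4a null minus control, and Oat lies above 0 in all 3 comparisons.

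The 3 comparisons across FoxA3 genotype share control libraries with those above and also carry anything else that sets these pairs of groups apart. In FoxA3 null against lox, the median of all tested genes was 0.10, and differences are given relative to it. None of the 9 members was called by limma, where 7.19% of tested genes were called; without the variance trend it also called 0, and 2 had an unadjusted p under 0.05. At adjusted p alone Asl fell, at -0.71 before subtracting the median (SE 0.24, adjusted p = 0.0380) and -0.81 relative to it. Of all tested genes 13.0% fell, and no member rose, where 21.7% rose. After median scaling these shares were 16.7% and 17.1%. Asl no longer passed in 6 of 7 fits that left out 1 library, without the filter on low values or in a fit of these 2 groups alone; without lox replicate 3 its difference was -0.31 before subtracting the median. Cps1 was at 0.85 before subtracting the median (SE 0.35, adjusted p = 0.0731) and 0.74 relative to it. It was called without lox replicate 3 or FoxA3 null replicate 3, at 1.07 and 1.02 before subtracting the median. Ass1 also passed as higher without lox replicate 3, at 0.80 before subtracting the median (adjusted p = 0.0111). Asl was called without lox replicate 2, at -1.04. Of the tested markers, 1 of 2 cholangiocyte and 1 of 3 erythroid markers were called lower in this comparison, and their part was not tested.

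In triple null against lox, 4 of 9 members were called (13.5% of all tested genes), and the median of all tested genes was 0.13. Relative to it Asl was at -2.11, Cps1 at -1.45 and Oat at 2.72, and Glul rose from 112 ± 37.9 (SD, n = 3) to 324 ± 169 RPKM (n = 4). With Otc lower and Nags and Slc25a15 higher, 3 fell (14.8% of tested genes) and 4 rose (27.7%). Without lox replicate 3, Gls2 also passed as higher, at 0.67 before subtracting the median (adjusted p = 0.0225). After scaling each library to its median, 19.8% of tested genes fell and 21.2% rose. In triple null against Cre alfp, 3 of 9 were called (10.3%), and the median was 0.13. Relative to it Cps1 was at -1.36, Oat at 1.67 and Glul at 1.27. Counting Otc and Asl, 3 fell (14.4% of tested genes), and counting Nags and Slc25a15, 4 rose (26.9%), and after median scaling 18.7% of tested genes fell and 21.3% rose. The Glul call was lost in both comparisons without the filter on low values (adjusted p = 0.0633 and 0.0514) and without triple null replicate 3 (adjusted p = 0.0710 and 0.0638), without lox replicate 1 or 3 in the first and without Cre alfp replicate 2 in the second. Against lox it was also lost with the replicate block (adjusted p = 0.0564). The Cps1 call against Cre alfp was lost without triple null replicate 4, where its difference was -0.97 before subtracting the median. Asl was also called against Cre alfp after median scaling (-1.08), after quantile scaling (-1.01) and without triple null replicate 3 or Cre alfp replicate 1 (-1.02 and -1.07 before subtracting the median). Slc25a15 was called there without triple null replicate 1 or 2 or Cre alfp replicate 2, at 1.02 to 1.04 before subtracting the median.

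Marker genes moved in both of these comparisons as well. Both tested neutrophil markers were called higher in triple null, with a median of 3.17 against lox and 2.63 against Cre alfp. Sinusoidal endothelium markers were called lower for 2 of 5 against lox and 3 of 5 against Cre alfp, and hepatocyte markers for 2 of 6 and 1 of 6. Against lox, 1 of 2 cholangiocyte markers was called lower, and of 3 erythroid markers 2 were called higher and 1 lower; against Cre alfp, 1 erythroid marker was called lower. Their part in the members' differences was not tested.

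In the livers labelled HNF4a null, Otc was nearly gone while Cps1 and Oat were high. Otc read 0.175, 0.416, 0.342 and 1.63 RPKM in those libraries and 184 and 164 in the controls, which is 0.368% ± 0.383 (SD, n = 4) of the control mean. Oat read 1112, 959, 832 and 701 RPKM against 176 and 153. Cps1 read 1967, 1396, 1509 and 1668 RPKM against 764 and 831. None of these 3 members overlapped between the groups. Over all members 5 of 9 did not overlap, against 67.0% of all tested genes.

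The median of all tested genes in this comparison was 0.34, and differences are given relative to it. Otc was at -7.15 (SE 0.31, adjusted p = 1.35e-05). Oat rose by 2.09 (SE 0.19, adjusted p = 0.000160) and Cps1 by 0.69 (SE 0.16, adjusted p = 0.00252), or 1.02 before subtracting the median. These 3 of 9 were called, where 14.5% of tested genes were called. Glul, at 564 to 723 RPKM against 315 and 354, rose by 0.63 (SE 0.13, adjusted p = 0.00142). It was not called, but it was after quantile scaling (1.08) and without the control with barcode ACTGATA (1.05) or the library with barcode GTGGCCA (1.04), all before subtracting the median. Ass1, at 115 to 171 RPKM against 81.1 and 100, passed at 0.54 before subtracting the median (SE 0.18, adjusted p = 0.0446). Relative to the median it was at 0.20. The pass was lost without the filter on low values and in 4 of 6 fits that left out 1 library. So 4 members rose, where 41.1% of tested genes rose, and 1 fell, where 11.7% fell. After scaling each library to its median, 18.3% of tested genes rose and 17.0% fell; Cps1 was then 0.76 (adjusted p = 0.00936) and no longer called, and Ass1 no longer passed. The Cps1 call was also lost without the control with barcode ACTGATA or the library with barcode GAGTGGA, where its unscaled difference was 0.96 and 0.93.

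The other 4 members did not pass in liver. Asl read 276 and 299 RPKM in the controls and 200 to 370 in the other libraries. Its difference was -0.19 before subtracting the median (SE 0.24, adjusted p = 0.542) and -0.52 relative to it. Relative to the median, Nags was at -0.53 (SE 0.16), Slc25a15 at -0.77 (SE 0.30) and Gls2 at -0.53 (SE 0.13). The tested differences, before subtracting the median, were -0.19, -0.44 and -0.19 in that order (adjusted p = 0.334, 0.251 and 0.251). Gls2 passed as lower after median scaling, at -0.46 (adjusted p = 0.0283), and Slc25a15 did so without the library with barcode GGCTAC. Cholangiocyte markers summed to 14.4 RPKM in both controls and to 107 to 205 in the other libraries, and hepatocyte markers to 23901 to 25181 and 8085 to 10288. Kupffer cell and macrophage markers summed to 83.7 to 94.3 RPKM in controls and 106 to 134 in the others. Neutrophil markers summed to 0.619 to 1.66 RPKM in controls and 2.94 to 13.9 in the others, with Ly6g at 0 in all 6, and both tested markers were called higher. Erythroid markers summed to 258 to 286 RPKM in controls and 165 to 499 in the others, with 1 of 3 called lower. Of 5 stellate and fibroblast markers 2 passed as higher, as did the 1 tested lymphocyte marker, and none of these was called. The part of these cells in the differences was not tested.

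Other genes of nitrogen handling were read from lists of related genes. Among carriers and transporters, 1 of 10 tested genes rose and 2 fell in triple null against FoxA3 null, where 17.4% of all tested genes rose and 12.3% fell. Rhbg, an ammonium transporter of pericentral hepatocytes, rose from 2.72 ± 1.04 to 24.3 ± 12.9 RPKM (mean ± SD, n = 4), a difference of 2.70 (SE 0.38, adjusted p = 0.000125). Slc38a2, a neutral amino acid transporter, fell by 1.18 (SE 0.30, adjusted p = 0.00951). In liver labelled HNF4a null, 1 rose and 4 fell, where 41.1% of all tested genes rose and 11.7% fell (18.3% and 17.0% after median scaling). There the glutamine transporter Slc38a3 was at -1.96 relative to the median (SE 0.13, adjusted p = 0.000186) and Rhbg at -1.45 (SE 0.11, adjusted p = 0.000422).

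Among the arginine, ornithine and proline enzymes, 3 of 7 tested genes rose and 1 fell in triple null against FoxA3 null, against 17.4% and 12.3% of all tested genes, and the median of the list was 0.66. Prodh, the first enzyme of proline breakdown, rose by 1.64 (SE 0.26, adjusted p = 0.000321). Gamt, which makes creatine, rose by 1.08 (SE 0.18, adjusted p = 0.000413), and Agmat, which encodes agmatinase, by 0.74 (SE 0.14, adjusted p = 0.000961). In liver labelled HNF4a null, 2 of 8 rose and 3 fell, against 41.1% and 11.7% of all tested genes (18.3% and 17.0% after median scaling). Agmat averaged 6.41 ± 0.85 RPKM there (SD, n = 4) and 77.2 ± 5.03 (n = 2) in the controls, a relative difference of -3.74 (SE 0.13, adjusted p = 6.61e-06).

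Of the 8 glutamate and transamination enzymes, 2 rose and none fell in triple null against FoxA3 null, against 17.4% and 12.3% of all tested genes. They were the alanine aminotransferases Gpt at 0.40 (SE 0.14, adjusted p = 0.0455) and Gpt2 at 0.85 (SE 0.28, adjusted p = 0.0353). In Cre alfp against lox 1 of the 8 fell, where 2.62% of all tested genes fell. It was the asparagine synthetase Asns, from 9.54 ± 1.23 (SD, n = 3) to 0.205 ± 0.159 RPKM (n = 4), a difference of -3.13 (SE 0.16, adjusted p = 1.07e-07). Against the same lox libraries, 1 of the 8 was also called lower in FoxA3 null, and 1 lower and 1 higher in triple null. Of all tested genes 7.19% and 13.5% were called there. In the interaction 1 of the 8 was called higher, where 6.82% of all tested genes were called. In liver labelled HNF4a null, 1 rose and 3 fell, against 41.1% and 11.7% of all tested genes (18.3% and 17.0% after median scaling). The mitochondrial aspartate aminotransferase Got2 was at -1.50 relative to the median there (SE 0.09, adjusted p = 0.000162). Sirt5 and Sirt3, mitochondrial deacylases, did not pass in triple null against FoxA3 null, while both passed in liver labelled HNF4a null. There Sirt3 fell, at -2.65 relative to the median (SE 0.11, adjusted p = 1.79e-05). Sirt5 passed as higher before subtracting the median (adjusted p = 0.00889), and was at 0.35 relative to it (SE 0.15).

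Zonation genes were read because Glul and Oat are pericentral and most cycle genes periportal. In triple null against FoxA3 null, 5 of 11 pericentral genes rose and 1 fell, with a list median of 0.79, where 17.4% of all tested genes rose and 12.3% fell. Lect2 rose from 116 ± 33.3 to 1268 ± 192 RPKM (SD, n = 4), a difference of 3.46 (SE 0.21, adjusted p = 2.38e-08). Rhbg, given above, is on this list too, while the bile acid enzyme Cyp27a1 fell by 1.60 (SE 0.15, adjusted p = 2.87e-06). Of 10 periportal genes, none rose and 3 fell, with a median of -0.53, and the largest fall was that of G6pc, glucose 6-phosphatase, at -1.50 (SE 0.48, adjusted p = 0.0291), whose groups overlapped. In liver labelled HNF4a null, 3 pericentral genes rose and 3 fell, and 1 periportal gene rose and 5 fell, where 41.1% of all tested genes rose and 11.7% fell, or 18.3% and 17.0% after median scaling. Cyp2f2 lay furthest from the median there, at -7.61 (SE 0.46, adjusted p = 5.59e-05).

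**Figure D3:**
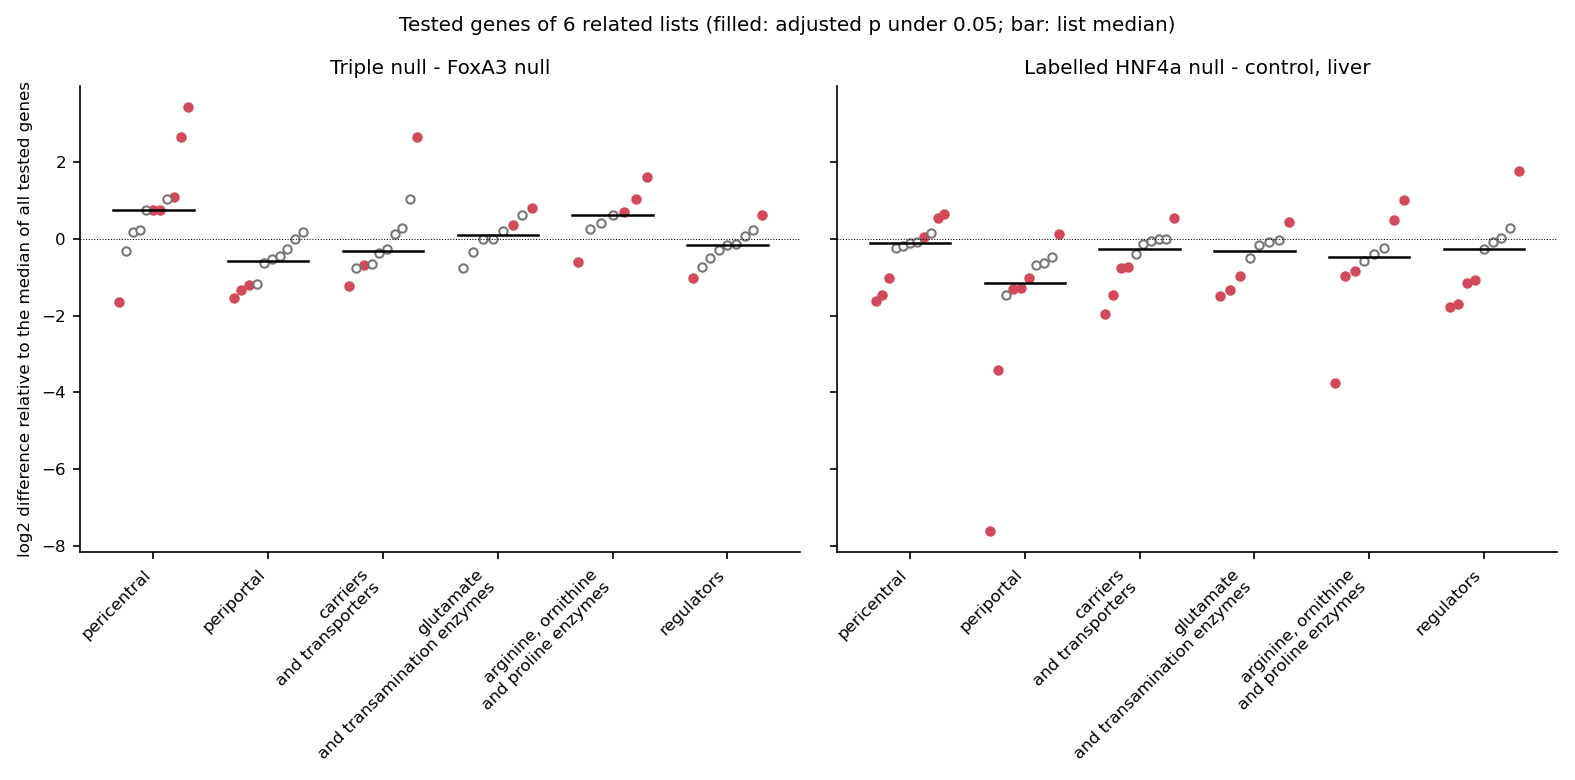
Log2 difference of each tested gene relative to the median of all tested genes in 6 lists, for triple null minus FoxA3 null (left) and liver labelled HNF4a null minus control (right); filled points passed at adjusted p under 0.05 and bars are list medians. On the left the pericentral median lies above 0 at 0.74 and the periportal median below it at -0.58.

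Among 9 regulators known for these genes, 1 rose and 1 fell in triple null against FoxA3 null, where 17.4% of all tested genes rose and 12.3% fell. The glucagon receptor Gcgr fell by 0.99 (SE 0.13, adjusted p = 5.35e-05) and Cebpb rose by 0.65 (SE 0.21, adjusted p = 0.0312). Hnf4a itself was at -0.13 (SE 0.19, adjusted p = 0.658). In liver labelled HNF4a null, 4 fell and 1 rose, where 11.7% of all tested genes fell and 41.1% rose. After median scaling these shares were 17.0% and 18.3%. The 1 regulator that rose was Hnf4a itself. Cebpa, which encodes C/EBP alpha, was at -1.77 relative to the median (SE 0.10, adjusted p = 9.57e-05) and Gcgr at -1.69 (SE 0.19, adjusted p = 0.00157).

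Within the hepatocyte groups, some members moved together from library to library. Over 15 libraries, deviations from the group means correlated at r = 0.85 for Ass1 with Asl, 0.80 for Ass1 with Gls2 and 0.71 for Glul with Oat, and at -0.37 for Glul with Gls2. The values for Ass1 with Asl and with Gls2 lean on the lox group. Its SD was the largest of the hepatocyte groups, at 78.9 RPKM for Ass1, 331 for Asl and 91.7 for Gls2 (n = 3). Lox replicate 3 was its highest library for each. In FoxA3 null, Asl read 352 to 364 RPKM. These libraries share the effects of depth and preparation, and the values are a description. The genes outside the list whose log2 levels over the 15 libraries were most like Oat were Lhpp, Idh2 and Sult1d1 (r = 0.99, 0.98 and 0.97). Those most like Cps1 included Uox, urate oxidase (r = 0.95), and those most like Asl included Zap70 (r = 0.95) and Col27a1 (r = 0.94). These genes were picked as the highest r of all tested genes, with differences between groups left in. Zap70 and Col27a1 averaged 0.176 and 0.224 RPKM in triple null, and 9.92 and 26.2 in lox.

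The authors' deposited tables of their own tests hold all 9 members. In the authors' deposited table of triple null against FoxA3 null, Cps1 has a log2 fold change of -2.24, Asl of -1.39 and Oat of 2.67. In it 4 of the 9 members pass as higher and 4 as lower, where 20.6% and 22.1% of the genes listed do so. That same authors' deposited table also lists Glul at 1.10 (adjusted p = 0.00407) and Ass1 at -0.42 (adjusted p = 7.92e-05), the 2 members that pass there and not in the fit on RPKM. In the authors' deposited table for HNF4a null against control, Otc has -8.51, Oat 2.03 and Cps1 0.61, and Hnf4a itself 1.73. In it 3 of the 9 members pass as higher and 4 as lower, where 21.4% and 24.9% of the genes listed do so. That authors' deposited table also lists Gls2 at -0.64 (adjusted p = 6.64e-06), Asl at -0.63 (adjusted p = 0.000637) and Nags at -0.58 (adjusted p = 0.000141) as lower, which did not pass in the fit on RPKM. Ass1, which passed in that fit, does not pass in the authors' deposited table, at 0.17 (adjusted p = 0.323).

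In the authors' deposited table of hepatoblasts against adult hepatocytes, all 9 members are lower in hepatoblasts, from -2.66 for Glul to -7.20 for Otc, where 37.9% of the genes listed are lower. In the authors' deposited table of newborn against adult hepatocytes, 3 of the 9 members pass as lower, where 31.7% of the genes listed do so. They are Oat at -4.10, Otc at -1.64 and Nags at -0.39. Cps1 alone passes as higher, at 0.89 (adjusted p = 0.00699), where 31.6% of the genes listed do so. The other members do not pass in that authors' deposited table. The authors' deposited table of triple null against hepatoblasts lists all 9 members as higher in triple null, from 2.08 for Asl to 7.95 for Oat, where 37.6% of genes listed are higher.

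**Figure D4:**
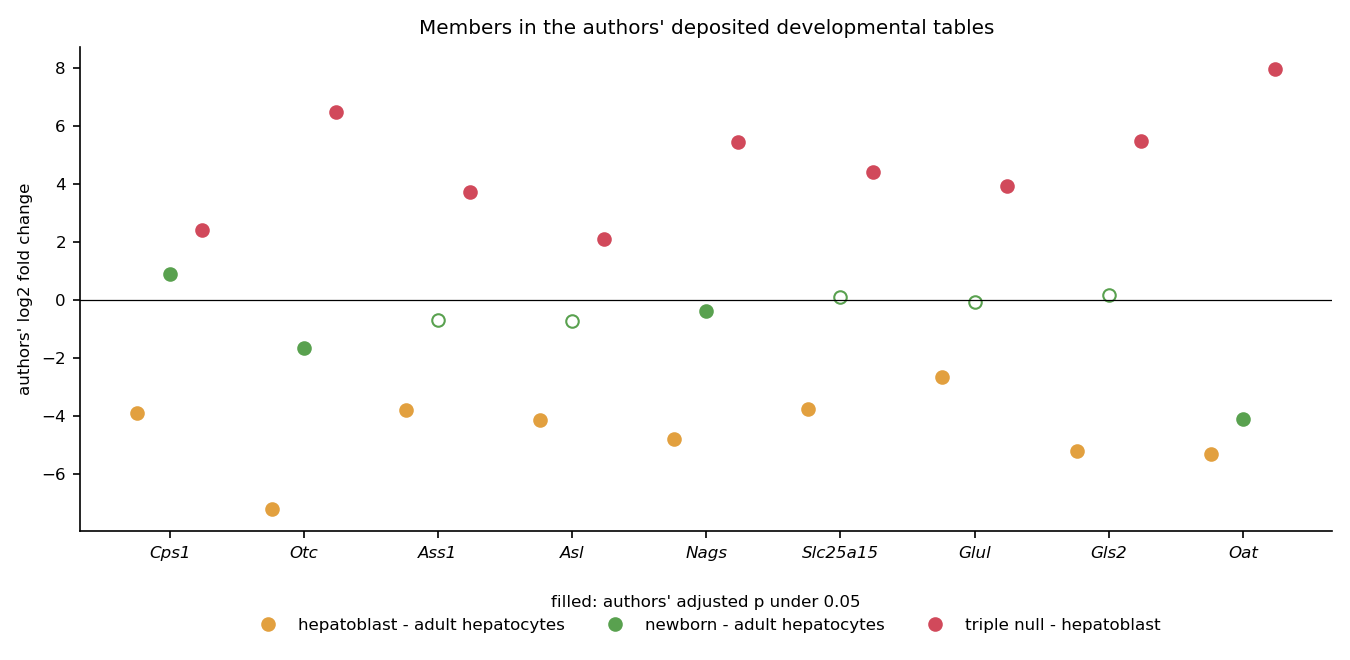
The authors' deposited log2 fold changes of the 9 members in 3 developmental tables; filled points have an authors' adjusted p under 0.05. All 9 lie below 0 for hepatoblast minus adult, and all 9 lie between 2.08 and 7.95 for triple null minus hepatoblast.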

How the data were processed

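The authors deposited 1 matrix of RPKM values per gene and library, and the submitters' processing notes name Cufflinks 2.2.1, SAMtools, DESeq2 and mouse build mm9 without their roles; the aligner is not given in the sources used here. Hepatocyte RNA was made into libraries with an Ultra RNA kit for Illumina sequencing, per the labels' protocols. RPKM is not a count and carries no absolute depth, so no count test was run and no counting error can be given. Labels could be given to 21 library columns; 9 others were left unused. The 3 lox columns name FoxA1/A2 with a replicate number and do not say lox; they were matched to the lox labels by name, and every lox value rests on that. Liver columns carry a barcode and no replicate number. The authors' deposited comparison tables give log2 fold changes and p-values; the table against Cre alfp holds unadjusted p-values, which were adjusted here by the Benjamini-Hochberg method, and the sign of the table against undeleted controls was turned.

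log2(RPKM + 1) was fitted with limma 3.58.1 (R 4.3.3, lmFit and eBayes with a trend), all 15 hepatocyte libraries in 1 fit and the 6 livers in another. Genes needed an RPKM of at least 1 in at least 3 hepatocyte or 2 liver libraries. On simulated data for triple null against FoxA3 null (11179 genes), 97 of 100 genes changed by 1.5 on the log2 scale were called, and 85 of 100 for the livers (11994 genes). The changed genes had a mean log2 level of at least 3, and the noise was normal and independent between genes. Calls among unchanged genes are not given here, so these are no rates for low genes or for false calls. Alternatives were a pseudocount of 0.1, no filter, median and quantile scaling, no minimum difference, no trend, a replicate block, 2-group fits and leaving out each library. The 9 members were all named, and 1 more gene is not reported here; of other lists, at most the 3 largest differences. The members and lists were chosen with earlier results of these data known. ChIP, ATAC and peak files were not used here.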

Additional observations from a re-analysis of the deposited data

Results flagged for a closer look

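The libraries labelled HNF4a null held 1 library apart from the other 3 for a pair of members. Otc read 1.63 RPKM in the library with barcode TAGCTTA, above 0.175 to 0.416 in the others and still far under the control values of 164 and 184. Ass1 read 171 RPKM in the library with barcode GAGTGGA, above 115 to 124 in the others. Chance flags about 1 in 20 groups of 4, and 36 were searched, so about 1.8 would be expected where 2 were found.

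The interaction of FoxA1/A2 deletion with FoxA3 status passed for 4 members. How Cre was delivered, how much Foxa1 signal remained and FoxA3 genotype cannot be told apart. The interaction was -2.08 for Cps1, 1.70 for Oat, 0.77 for Slc25a15 and 0.73 for Nags. Slc25a15 no longer passed with the replicate block, after quantile scaling, without the filter on low values or in 11 of 15 fits that left out 1 library, and Oat did not pass without the filter.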

How the results depend on the processing

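With the minimum difference dropped, members called rose from 3 to 6 in triple null against FoxA3 null, from 2 to 4 in the interaction, from 0 to 1 in FoxA3 null against lox, from 4 to 7 in triple null against lox, from 3 to 7 in triple null against Cre alfp and from 3 to 5 in livers labelled HNF4a null. In Cre alfp against lox the count went from 1 to 0 without the filter on low values and in the fit of these 2 groups alone. In the interaction it went from 2 to 1 without that filter. Leaving out 1 library at a time gave 3 to 4 called members in triple null against FoxA3 null, 0 to 1 in Cre alfp against lox, 2 to 2 in the interaction, 0 to 1 in FoxA3 null against lox, 3 to 4 in triple null against lox, 2 to 4 in triple null against Cre alfp and 2 to 4 in livers labelled HNF4a null. Without 1 control liver, the other is assumed to vary like the remaining libraries. The other alternatives kept each count within 1.5 times, although under quantile scaling the single call in Cre alfp against lox was Oat (1.11, adjusted p = 0.0418) and not Asl.

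Of 828 alternative values of the 63 member differences, 38 in 11 results changed sign, none from a called difference and with adjusted p of 0.372 or more. Leaving out libraries moved the difference across 0 in Cre alfp against lox for Cps1 (-0.26 to 0.15), Ass1 (-0.41 to 0.30) and Glul (-0.28 to 0.29). It did so in the interaction for Ass1 (-0.67 to 0.051), Asl (-0.66 to 0.069) and Gls2 (-0.30 to 0.20), in FoxA3 null against lox for Nags (-0.082 to 0.072), Gls2 (-0.10 to 0.40) and Oat (-0.10 to 0.28), and in triple null against lox for Ass1 (-0.28 to 0.44). Median scaling gave Gls2 -0.0050 in the interaction, -0.0087 in FoxA3 null against lox and -0.014 in triple null against Cre alfp, Oat -0.0059 in FoxA3 null against lox and Ass1 -0.075 in triple null against lox. Quantile scaling gave Gls2 -0.017 in the interaction and Ass1 -0.0099 in triple null against lox.

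Replicate numbers are shared between groups, but same-numbered libraries did not deviate together: r was -0.36 to 0.02 over 4 pairs of triple null and FoxA3 null and -0.20 to 0.12 over 3 pairs of Cre alfp and lox. A fit with the replicate block called 3 members in triple null against FoxA3 null and 3, not 4, in triple null against lox, where Glul had adjusted p = 0.0564. With the replicate block, Cps1 was 0.073 and Glul -0.13 in Cre alfp against lox, Gls2 -0.091 in the interaction, and Nags 0.017 and Oat -0.082 in FoxA3 null against lox, where Cps1 passed as higher under the replicate block (adjusted p = 0.0436) and was not called. Absolute depth is unknown, which limits what can be said of low values.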
